A study of Mus musculus with 13 samples.

Results

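The genes of cytochrome P450 enzymes were measured in back skin of mice over 2 full days. They were taken as all genes whose symbol has the form Cyp, a family number, a subfamily letter and a member number, which leaves out Cyp51. Of 82 such genes with a probe of their own, 49 had a mean level no lower than the 25th percentile over the array's probes and are described here, among 16322 genes measured in all. The other 33 lay below that level. The threshold was 7.61 on the log2(intensity + 16) scale, with Cyp21a1 just inside at 7.70 and Cyp3a11 just outside at 7.60. Each of the 82 genes had a single probe, and 7 further probes that each name several genes, at least 1 of them a P450 gene, were left out. The skin came from male C57Bl6 mice aged 30 days after birth, at an age when hair follicles grow (anagen). Mice were kept in 12 h of light and 12 h of dark, and samples span ZT2 to ZT50 in steps of 4 h. ZT is the time in hours since lights on. RNA of 3 mice was pooled for each time, which gave 13 pools from 39 mice on 1 array each: 6 pools from the dark (ZT14, ZT18, ZT22, ZT38, ZT42 and ZT46) and 7 from the light (ZT2, ZT6, ZT10, ZT26, ZT30, ZT34 and ZT50). All groups shared strain, sex, age and diet, so the pools differ by design only in time of collection.

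Cytochrome P450 enzymes are heme proteins, most of which sit in the membrane of the endoplasmic reticulum and use molecular oxygen and electrons from P450 reductase to oxidise lipids, hormones and foreign compounds. Families CYP1 to CYP3 are best known for drug and toxin metabolism in the liver, while CYP4 enzymes hydroxylate fatty acids, CYP26 enzymes break down retinoic acid, and others make or break down steroids, sterols, bile acids and vitamin D. In skin, P450 enzymes take part in building the lipid barrier, in balancing retinoic acid and vitamin D, and in handling compounds that reach the body from outside. Many P450 genes of the liver are known to follow the day, some through the clock output factors Dbp, Tef and Hlf, which bind the D-box.

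The stretch of 250 bases before the gene start is shown for 4 genes that lie in one run of P450 genes on chromosome 7 and had wave fits peaking at 13.9 to 15.9 h, and for Cyp2e1, farther along the same chromosome, because the wave tests below turn on these genes. The sequences are RefSeq's for GRCm38.p6, written 5′ to 3′ on the strand of the gene. Capitals mark the nuclear receptor core AGGTCA in Cyp2f2, Cyp2b23 and Cyp2b9, and the TATA motif TATAAA in Cyp2e1.
Cyp2f2 (chr7:27119705-27119954, plus strand): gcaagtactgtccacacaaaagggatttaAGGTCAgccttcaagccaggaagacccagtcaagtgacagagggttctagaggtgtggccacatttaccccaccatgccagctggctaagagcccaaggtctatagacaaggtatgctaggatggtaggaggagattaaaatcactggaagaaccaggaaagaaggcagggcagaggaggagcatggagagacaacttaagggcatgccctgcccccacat
Cyp2b10 (chr7:25897408-25897657, plus strand): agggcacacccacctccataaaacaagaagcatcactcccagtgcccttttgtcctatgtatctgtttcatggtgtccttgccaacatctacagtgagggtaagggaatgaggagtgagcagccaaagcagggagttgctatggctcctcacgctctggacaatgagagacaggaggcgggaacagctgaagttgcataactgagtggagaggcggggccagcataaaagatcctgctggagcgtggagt
Cyp2b23 (chr7:26686431-26686680, minus strand): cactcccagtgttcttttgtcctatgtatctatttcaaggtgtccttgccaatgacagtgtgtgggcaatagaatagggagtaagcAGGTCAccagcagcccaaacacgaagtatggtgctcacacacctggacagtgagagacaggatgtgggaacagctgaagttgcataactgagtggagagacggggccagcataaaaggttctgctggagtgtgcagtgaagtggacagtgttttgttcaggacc
Cyp2b9 (chr7:26173159-26173408, plus strand): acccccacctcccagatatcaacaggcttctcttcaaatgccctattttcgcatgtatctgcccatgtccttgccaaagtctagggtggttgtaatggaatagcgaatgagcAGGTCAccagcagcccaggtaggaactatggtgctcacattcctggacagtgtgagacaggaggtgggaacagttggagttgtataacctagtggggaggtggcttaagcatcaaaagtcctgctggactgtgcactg
Cyp2e1 (chr7:140763569-140763818, plus strand): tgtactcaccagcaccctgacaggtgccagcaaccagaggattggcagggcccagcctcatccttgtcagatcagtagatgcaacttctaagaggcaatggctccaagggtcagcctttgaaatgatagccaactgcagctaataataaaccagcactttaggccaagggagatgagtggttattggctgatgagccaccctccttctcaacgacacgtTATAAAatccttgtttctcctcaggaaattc
Cyp2b10, Cyp2b23 and Cyp2b9 share much of this stretch: identical bases made up 73.2% of the 250 for Cyp2b10 and Cyp2b23, 74.4% for Cyp2b10 and Cyp2b9, and 72.8% for Cyp2b23 and Cyp2b9. The longest run shared by Cyp2b10 and Cyp2b23 had 34 bases. The other 7 pairs among these 5 genes, all with Cyp2f2 or Cyp2e1, stood at 57.6% to 60.4%. In RefSeq's promoter table, 40 of the 49 genes had an entry, with 42 promoters between them. AGGTCA, read on both strands as all motifs here, was found in the 250 bases of 9 of these 40 genes. By promoter it was in 10 of the 42, and in 14.0% of all 32851. Cyp2b19, of the same run on chromosome 7 but with a nearly flat wave fit (1.02-fold from trough to peak), was among the 9. TATAAA was found in 12 of the 40 genes, in 12 of the 42 promoters, and in 12.4% of all promoters. The D-box, TTANGTAA, was in none of the 40 genes and in 2.06% of all promoters, and the E-box, CACGTG, was in 1 of them, Cyp2j6, and in 6.02% of all. The dioxin response core TNGCGTG (4.10% of all promoters) and the motif of the liver factor HNF1 (0.055%) were in none of the 40. No motif holds another within its letters, and the counts describe these windows only.

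Mean intensity of the 49 genes ran from 193 for Cyp21a1 to 5026 for Cyp2b19, with a median of 428 against 795 for all genes. Probes differ in brightness, so these are not amounts of RNA to be compared between genes. Cyp2b19, which makes epoxides of arachidonic acid in keratinocytes, varied little, from 4696 in ZT14 to 5272 in ZT18. The highest pool of a gene exceeded its lowest by 1.56-fold in the median P450 gene, and by 1.31-fold in the median of all genes. Markers of epidermis, 11 of 12 measured, were bright in every pool, with Krt5 between 13851 and 15797 and Krt10 between 9655 and 12050. Array medians lay between 440.0 and 483.2, and pools correlated at 0.978 to 0.996 over all genes.

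The ZT46 pool stood apart from the other 12 in several P450 genes typical of liver. Of the 49 genes 7, 14.3%, lay at least 1.5-fold above the median of the other pools there, against 95 of all 16322 genes, 0.582%. Cyp2c29, a liver epoxygenase, measured 6793 in ZT46, while the other 12 pools lay between 523 and 780 with a median of 616. That is a difference of 3.43 log2, the largest of all 16322 genes. Cyp2d26, another P450 of liver, measured 884 in ZT46 and 115 to 205 in the other pools. Cyp2d26 met the level threshold only through ZT46, its mean over the other 12 pools being 7.53 log2. Neither gene's ZT46 value overlaps with any other pool. Both are described without a test, as ZT46 is a single pool.

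Cyp2e1, which oxidises ethanol and small solvents, measured 2585 in ZT46, while the other pools lay between 357 and 2143. Cyp2c70, an enzyme of bile acid synthesis in mouse liver, measured 487 there, above 152 to 274 in the others. Cyp2c23, an arachidonic acid epoxygenase known from kidney, had 730 against 328 to 551. Cyp3a25, a drug-metabolising enzyme of liver, had 459 in ZT46 and 194 to 286 elsewhere, and Cyp4f15, a fatty acid hydroxylase, had 395 and 205 to 306. ZT46 was thus the highest of the 13 pools for each of these 7 genes. It was the highest pool in 18 of the 49 genes, 36.7%, and in 14.7% of all genes. Cyp2g1 was the only one of the 49 at least 1.5-fold below the median, with 0.478% of all genes so low. It measured 595 in ZT46 against 731 to 1649 in the other pools. Not every gene of the same subfamilies as the 7 rose. Cyp2c37 measured 221 in ZT46 against 180 to 286 in the other pools. Cyp2d10 had 382 against 238 to 539, and Cyp3a44 had 998 against 908 to 1295.

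ZT46 was also the high pool for several genes under the level threshold. Of the 33 such P450 genes, 11 lay at least 1.5-fold above their median in ZT46. The share among all genes under the threshold is not given here, so this count has no background beside it. Cyp3a11, the main drug-metabolising CYP3A enzyme of mouse liver, measured 2062 in ZT46, against a median of 140 and a highest value of 231 in the other pools, a 13.4-fold difference. Cyp1a2, a liver enzyme that acts on aromatic amines and caffeine, measured 652 there against a median of 119, and Cyp2c67 measured 629 against 99.4. The other 8 were Cyp2a12, Cyp2c38, Cyp2c39, Cyp2c50, Cyp2c54, Cyp2j5, Cyp4a10 and Cyp4a14, with folds of 1.63 to 2.97. Cyp7a1, the rate-limiting enzyme of bile acid synthesis, measured 131 in ZT46 against a median of 85.3 in the others, a 1.45-fold difference.

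Markers of hepatocytes moved with these genes. All 21 measured of 26 listed lay at least 1.5-fold above their median in ZT46, by 0.67 to 3.33 log2 with a median of 2.27. Alb, serum albumin, measured 10035 in ZT46 and 1027 to 4435 in the other pools. The mean level of the list, centred on each gene's own mean, was 2.02 log2 in ZT46, and -0.59 (ZT26) to 0.34 (ZT38) in the others. Skeletal muscle markers were low in the same pool, 8 of 20 at least 1.5-fold below their median. Their mean level varied widely between pools, at -0.54 log2 in ZT46, -0.62 in ZT2, its lowest, and 0.50 in ZT30. Sebaceous, adipocyte and epidermis markers in ZT46 lay within 1.5-fold of their medians in every measured gene. What part RNA of liver type had in the P450 values was not tested. Most counts below, and the genes whose values moved most, are therefore also given over the 12 pools without ZT46. In bulk tissue, more cells of a type and more RNA per cell cannot be told apart.

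**Figure D1:**
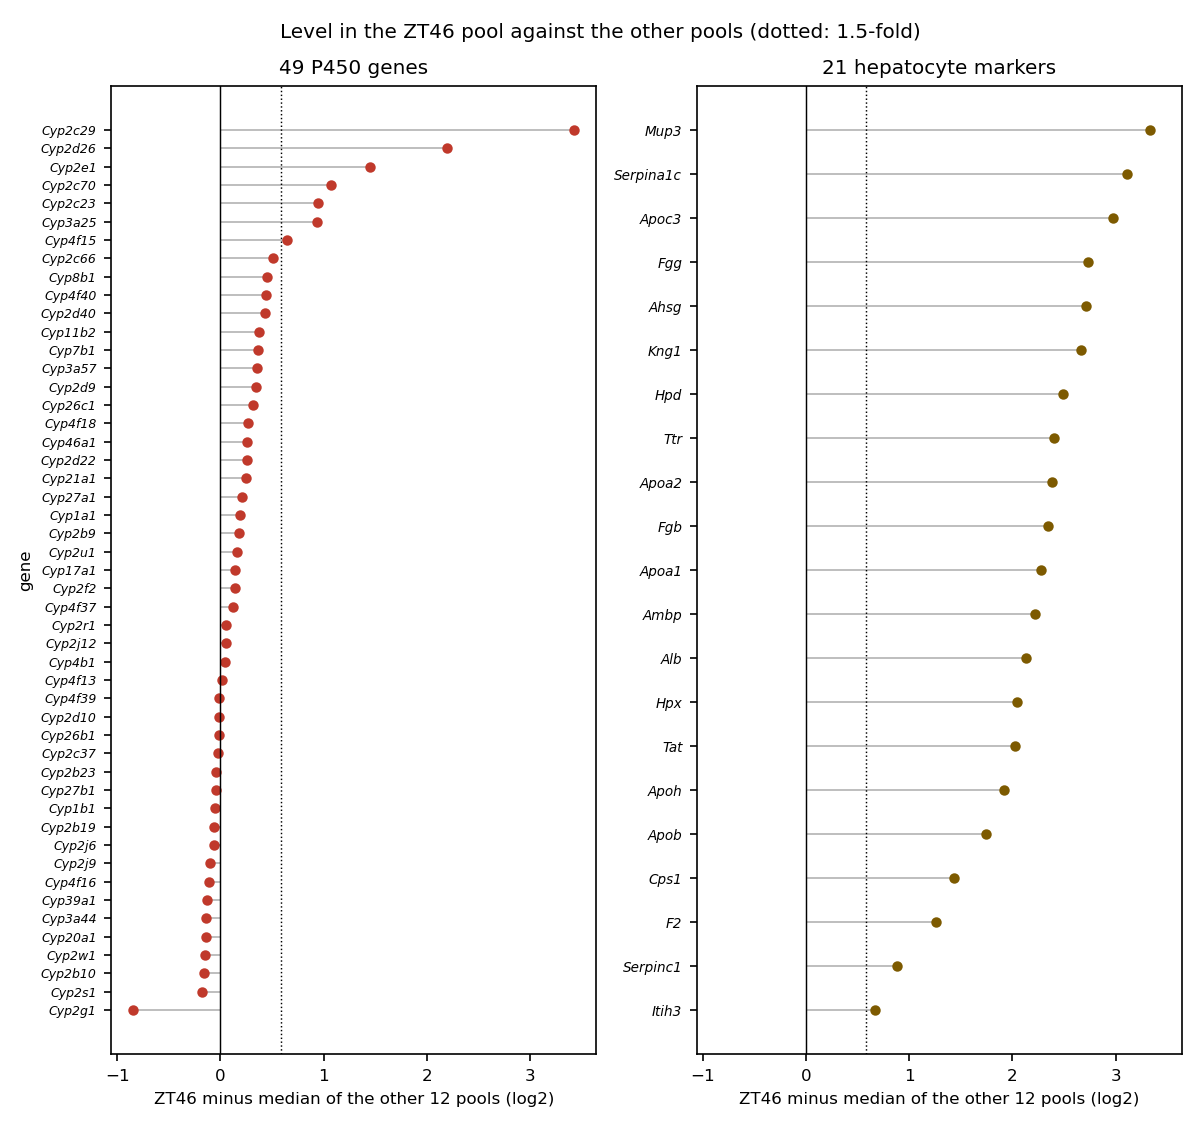
Level in the ZT46 pool minus the median of the other 12 pools, in log2(intensity + 16), for the 49 P450 genes (left) and 21 hepatocyte markers (right), 1 point per gene. The dotted line marks 1.5-fold: 7 P450 genes, led by Cyp2c29 at 3.43, and all 21 hepatocyte markers lie to its right.

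**Figure D2:**
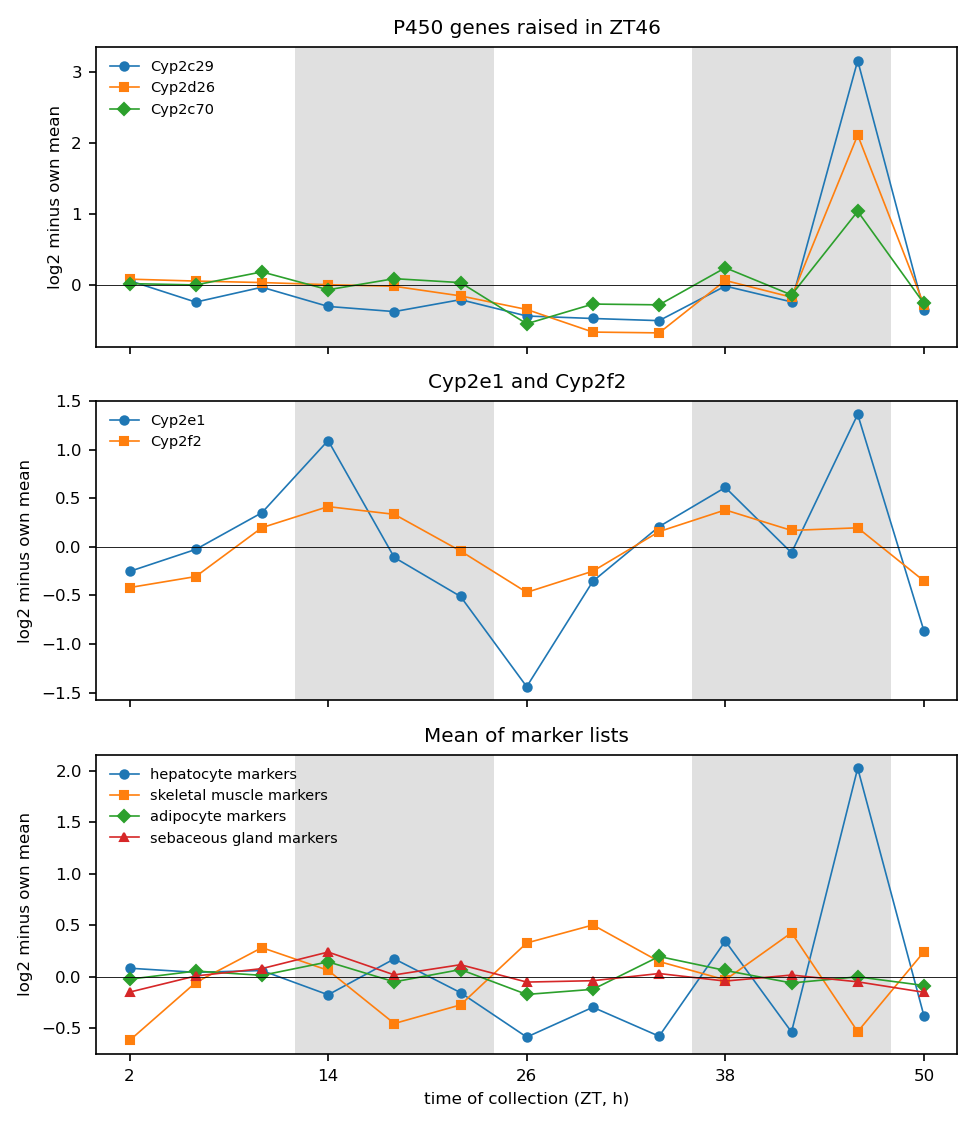
Log2(intensity + 16) minus the gene's own mean over 13 pools (top and middle, 1 line per gene) and the mean of this over the measured genes of 4 marker lists (bottom), against ZT in h, with dark periods shaded. Cyp2c29, Cyp2d26 and Cyp2c70 share the ZT46 maximum of the hepatocyte list, while Cyp2f2 is at its highest in ZT14 and ZT38 and Cyp2e1 is high in ZT14, ZT38 and ZT46.

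The sampling was made to follow the day, and each gene was tested for a 24 h wave with limma, with linear time as covariate and p-values adjusted over all 16322 genes. Of the 49 P450 genes 1 passed at an adjusted p under 0.05, Cyp2f2, against 23 of all genes, 0.141%. Without the ZT46 pool 2 passed, Cyp2f2 and Cyp2e1, against 30 of all genes, 0.184%. At an unadjusted p under 0.05 there were 15 of 49, 30.6%, and 9.54% of all genes. Of these, 13 peaked in the dark, 26.5% against 5.15%, and 10 peaked between 12 and 17 h, 20.4% against 3.47% of all genes. Without ZT46 the unadjusted count was 18, 36.7% against 10.4%, with 14 peaks in the dark, 28.6% against 6.46%, and 12 between 12 and 17 h, 24.5% against 5.48%. The count of 15 became 9 without ZT14, against 7.2% of all genes. With the mean of the sebaceous gland markers as a covariate it became 4, against 9.83%. The unadjusted count was 7 of 20 for skeletal muscle markers, 4 of 13 for sebaceous gland and 3 of 12 for adipocytes. It was 2 of 10 for endothelium, 1 of 10 for dermal fibroblasts and 2 of 7 for kidney and adrenal. Among 21 hepatocyte, 11 epidermis and 9 macrophage markers it was 0, all over 13 pools. The median amplitude, the height of the fitted wave, was 0.111 log2 in the P450 genes and 0.0609 in all genes. The median residual SD was also larger, 0.152 against 0.106 log2. In ZT14, 3 of the 49 genes lay at least 1.5-fold above the median of the other pools, 6.12% against 0.282% of all genes: Cyp2e1, Cyp2b23 and Cyp3a57, a CYP3A enzyme.

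Cyp2f2, which activates naphthalene and other aromatic compounds in mouse airways, measured 1812, 1961, 2786, 3239, 3065, 2357, 1751, 2039, 2708, 3163, 2731, 2783 and 1901 from ZT2 to ZT50. It was low at the start of the light, high by the end of the light and highest at ZT14 and ZT38, on both days. By time of day it averaged 1821 ± 75.6 (SD, n = 3) at 2 h, 1999.9 ± 54.8 (n = 2) at 6 h, 2747 ± 55.0 (n = 2) at 10 h, 3201 ± 53.7 (n = 2) at 14 h, 2898 ± 236 (n = 2) at 18 h and 2570 ± 301 (n = 2) at 22 h. The differences between 2 h and 14 h are far larger than the spread of the pools at each. The wave had an amplitude of 0.40 ± 0.04 log2 (SE), a fold of 1.74 between its peak, at 15.1 h, and its trough (limma, adjusted p = 0.00164). Without ZT46 the amplitude was 0.41 and the adjusted p 1.79e-04. The sebaceous gland markers, 13 of 14 measured, were also highest in ZT14, at 0.24 log2, and lowest in ZT50, at -0.15. With their mean as a covariate the amplitude of Cyp2f2 was 0.38 log2 over 13 pools (adjusted p = 0.103), against 0.40 without the covariate. Over the pools without ZT46 the covariate gave 0.39 (adjusted p = 0.0106), against 0.41. What part sebaceous gland RNA had in this wave was not tested. ZT14 was also the highest pool of the dermal fibroblast (0.20 log2) and epidermis (0.16) markers. For adipocyte (0.14) and endothelium (0.09) markers it was the second highest. Skeletal muscle markers stood at 0.06 in ZT14, macrophage markers at -0.01 and hepatocyte markers at -0.18.

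Cyp2e1 measured 833, 977, 1275, 2143, 922, 695, 357, 776, 1153, 1529, 954, 2585 and 540 from ZT2 to ZT50. Its values were higher at each step between ZT2 and ZT14 and between ZT26 and ZT38, and lowest in ZT26 and ZT50. The late dark of the second day stood far above that of the first. Over 13 pools the amplitude was 0.61 ± 0.21 log2, the fold 2.34 and the peak 14.4 h, and it did not pass (limma, adjusted p = 0.510). Without ZT46 the amplitude was 0.76 ± 0.10, the fold 2.88, the peak 13.2 h, and the adjusted p 0.0142. At 22 h the pools of the second and the first day held 2585 and 695, so the mean there, 1640 ± 1336 (SD, n = 2), describes neither. The hepatocyte list stood at -0.18 log2 in ZT14, where Cyp2e1 was highest among the other 12 pools, and at 0.34 in ZT38. With the hepatocyte mean as covariate, all 13 pools gave an adjusted p of 0.0502. Without ZT46 the call was lost with sebaceous markers as covariate (amplitude 0.77, adjusted p = 0.158), with adipocyte markers (0.62, adjusted p = 0.198), and when ZT14 was left out as well (0.69, adjusted p = 0.0670). It was also lost when times of day replaced the wave (adjusted p = 0.323).

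**Figure D3:**
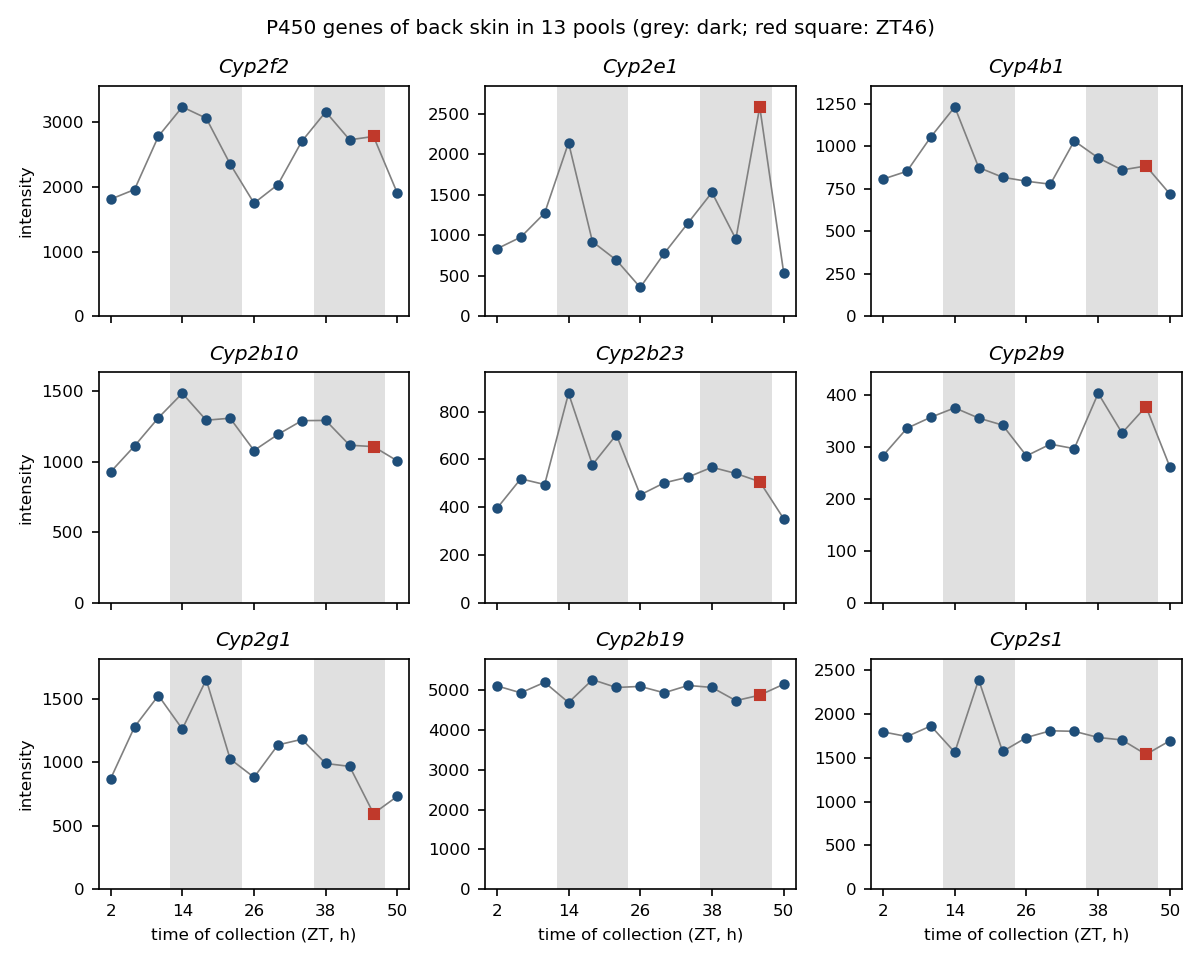
Intensity of 9 P450 genes in each of the 13 pools against ZT in h, 1 point per pool, with dark periods shaded and the ZT46 pool as a red square. Cyp2f2 repeats its ZT14 maximum at ZT38, Cyp2e1 has a further maximum at ZT46, and Cyp2b19 stays between 4696 and 5272.

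Cyp2f2 belongs to a run of 13 coding P450 genes on chromosome 7, each under 1 Mb from the next, of which 7 were measured: in order Cyp2s1, Cyp2b10, Cyp2b9, Cyp2b23, Cyp2b19, Cyp2g1 and Cyp2f2. In 5 of the 7 the wave had an unadjusted p under 0.05, with peaks from 12.7 to 15.9 h, against 9.54% of all genes at any hour and 3.47% with a peak between 12 and 17 h. Only Cyp2f2 passed after adjustment. Without ZT46 the folds of these 5 lay between 1.30 and 1.77, and again only Cyp2f2 passed. Probes of such close relatives may read each other's RNA, which was not tested. Cyp2b10, the classic target of the xenobiotic receptor CAR in liver, measured 1486 in ZT14 and 928 in ZT2, with a fold of 1.31 and a peak at 13.9 h (adjusted p = 0.350). Cyp2b23 had its highest value, 877, in ZT14 and its lowest, 352, in ZT50, a fitted fold of 1.54 and a peak at 15.9 h (adjusted p = 0.418). Cyp2b9 lay between 261 in ZT50 and 403 in ZT38, with a fold of 1.29 and a peak at 15.7 h (adjusted p = 0.431). These 3 thus had their maximum in ZT14 or ZT38, as did Cyp2f2.

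Cyp2g1, a P450 known from the olfactory lining, had a fold of 1.54 and a peak at 12.7 h (adjusted p = 0.431), over values of 868, 1277, 1524, 1260, 1649, 1025, 880, 1135, 1179, 989, 966, 595 and 731. It was lower on the second day than on the first at each time of day from 6 to 22 h. The 2 remaining genes of the run had small waves. Cyp2b19 had a fold of 1.02, and Cyp2s1, which acts on retinoids and prostaglandins in epithelia, had one of 1.06 with a single high pool, 2391 in ZT18, above 1538 to 1863 in the others. Cyp2b19 lies between Cyp2b23 and Cyp2g1 in this order, and both of these had a fold of 1.54.

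In the other 19 genes of families CYP2 and CYP3, no fit but that of Cyp2e1 passed with or without ZT46. Cyp2d22 had a fold of 1.22 with a peak at 16.1 h (adjusted p = 0.451) and Cyp2d9 one of 1.21 with a peak at 20.4 h (0.482). Cyp2d10, whose subfamily acts on basic drugs, measured 539 in ZT14 and 238 in ZT26, with a fold of 1.38 (adjusted p = 0.561). Some large fitted folds were smaller without ZT46. Cyp2c29 had a fold of 1.90 over 13 pools and 1.08 without ZT46, and Cyp2d26 had 1.81 and 1.29. For Cyp2c70 the folds were 1.34 and 1.25. Cyp2u1, a fatty acid hydroxylase, had the flattest fit of the 49 over 13 pools, with a fold of 1.01. Without ZT46 its fold was 1.04, and Cyp2b19 had the flattest fit, with 1.02.

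**Figure D4:**
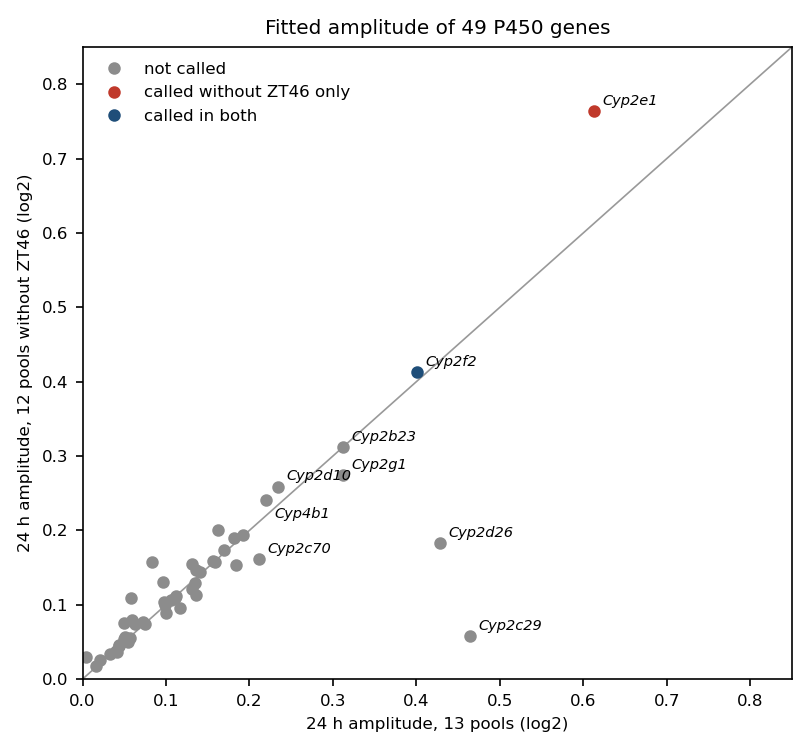
Amplitude of the 24 h wave in log2 for 49 P450 genes, over 12 pools without ZT46 (vertical axis) against 13 pools (horizontal axis), 1 point per gene, with the line of equal values. Most genes lie close to the line, Cyp2c29 and Cyp2d26 lie far below it, and Cyp2e1 lies above it.

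Among the 8 genes of family CYP4, which hydroxylate fatty acids, none passed. An unadjusted p under 0.05 was found in 4 of them, against 9.54% of all genes. Without ZT46 it was found in 4 as well, against 10.4%. Cyp4b1, which also activates plant and industrial toxins, measured 806, 852, 1054, 1230, 874, 817, 794, 776, 1030, 931, 860, 883 and 719 from ZT2 to ZT50. It was highest around the change from light to dark on both days, in ZT14 on the first and in ZT34 on the second. The fold was 1.36 and the peak 13.4 h (adjusted p = 0.250), and without ZT46 the fold was 1.40 (adjusted p = 0.0883). Cyp4f39, the mouse counterpart of the human enzyme CYP4F22 of skin barrier ceramides, measured 2001 to 2530, with a fold of 1.06. Cyp4f16 peaked in the light, at 6.5 h, with a fold of 1.17 (adjusted p = 0.418), and its range was narrow, 438 to 539. Cyp4f13 had a fold of 1.07, over 1345 to 1627. Cyp4f15 had a fold of 1.29 and a peak at 18.5 h (adjusted p = 0.506), and 1.24 without ZT46.

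Neither of the 2 genes that answer to dioxin-like compounds passed. Cyp1a1 had a fold of 1.20 and a peak at 17.4 h, and Cyp1b1 had a fold of 1.16 and a peak at 4.1 h, over values of 1496 in ZT14 to 2007 in ZT30 (adjusted p = 0.516 for both). Of the retinoic acid enzymes, Cyp26b1 had a fold of 1.26 with its highest value, 727, in ZT14 (adjusted p = 0.449), and Cyp26c1 had one of 1.21 (0.600). In the vitamin D group no fit had an unadjusted p under 0.05 over 13 pools. Without ZT46 there was 1, that of Cyp27a1 (limma, adjusted p = 0.482), against 10.4% of all genes. Cyp27a1 had a fold of 1.14, Cyp27b1, which makes the active hormone, 1.07, and Cyp2r1, which makes its precursor, 1.08.

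The steroid and sterol genes had no fit with an unadjusted p under 0.05 over 13 pools. Without ZT46 there was 1 among the 3 steroid genes, Cyp21a1, and 1 among the 4 sterol genes, Cyp7b1. The share of all genes was then 10.4%. Cyp17a1, an enzyme of androgen synthesis, measured 844 to 1217 with a fold of 1.08. Cyp11b2, aldosterone synthase in the adrenal, and Cyp21a1, needed there for corticosteroids, had dim probes, at 198 to 299 and 158 to 233, and folds of 1.15 and 1.20. Cyp39a1, an oxysterol hydroxylase, had a narrow range, at 1001 to 1304 with a fold of 1.05. Cyp7b1, which acts on oxysterols and steroids, had a fold of 1.12 over 13 pools and 1.24 without ZT46 (adjusted p = 0.325). The fold was 1.09 for Cyp46a1, the cholesterol hydroxylase of brain, and 1.08 for Cyp8b1, of bile acid synthesis. Cyp20a1, whose substrate is not known, had a fold of 1.07.

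**Figure D5:**
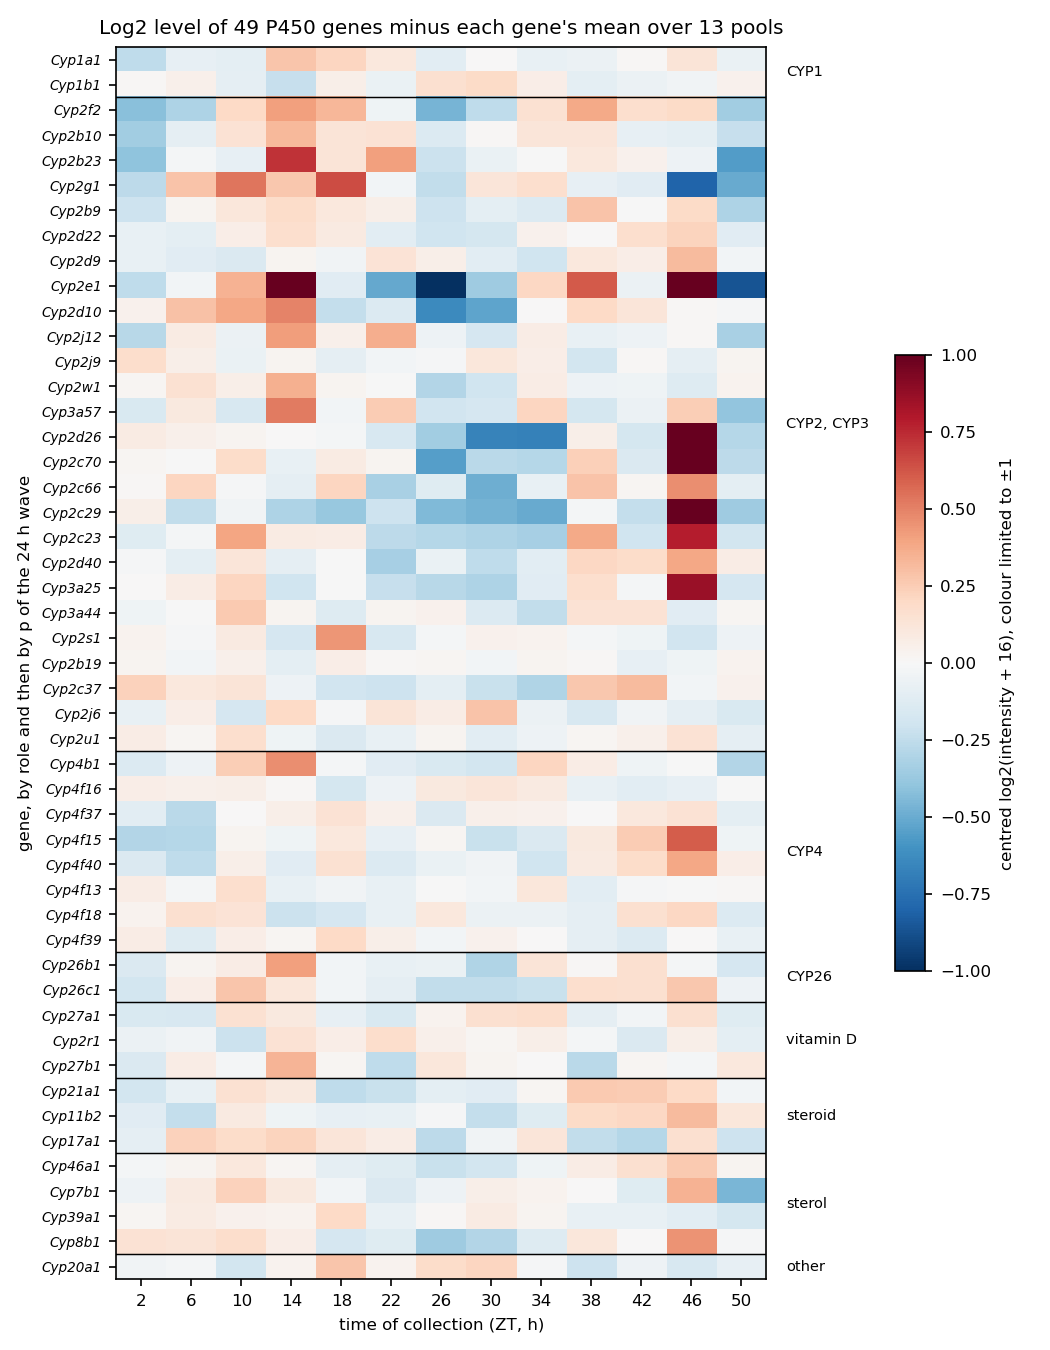
Log2(intensity + 16) of the 49 P450 genes minus each gene's mean over 13 pools, with pools in order of ZT across, genes by role and then by p of the 24 h wave down, and colour limited to ±1. The ZT14 column is red in many genes of the CYP2 and CYP3 block, and the ZT46 column is darkest in Cyp2e1, Cyp2d26, Cyp2c70 and Cyp2c29.

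The dark pools were set against the light pools in limma, with linear time in the model. None of the 49 genes passed over 13 pools, and of all genes 1 did, 0.00613%. The ranges of the dark and the light pools overlapped in each of the 49 genes, and were apart in 45 of all 16322 genes, 0.276%. At an unadjusted p under 0.05, 11 of 49 were higher in the dark, 22.4% against 7.56% of all genes, and 2 were lower, Cyp4f16 and Cyp1b1, 4.08% against 4.87%. The smallest p belonged to Cyp2b23, which had 507, 572 and 877 as lowest, median and highest in the dark, and 352, 495 and 526 in the light. The ranges met only in 507 to 526, and the difference was 0.48 ± 0.11 log2 (SE, limma, adjusted p = 0.314). Cyp2b9 had 326, 365 and 403 in the dark and 261, 296 and 357 in the light, a difference of 0.28 (adjusted p = 0.315). Cyp2f2 had 2357, 2924 and 3239 in the dark and 1751, 1961 and 2786 in the light, a difference of 0.45 (adjusted p = 0.324). Without ZT46, 13 were higher, 26.5% against 5.10%, and 3 lower, 6.12% against 4.26%, with none past adjustment.

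A steady change over the 48 h was tested as the time term of the wave fit. None of the 49 genes passed, nor did any of all 16322 (0%). At an unadjusted p under 0.05 there were 5 of 49, 10.2% against 8.80% of all genes, which is close to the background: 2 were lower with time, 4.08% against 5.59%, and 3 higher, 6.12% against 3.22%. Without ZT46 there were 6, 12.2% against 8.31%, and all 6 were lower, against 5.36% of all genes lower and 2.95% higher. Cyp2g1 had the smallest p, with a slope of -0.34 log2 per 24 h (limma, adjusted p = 0.365), and -0.28 without ZT46, where it was lowest. Cyp39a1 had a slope of -0.10 with and without ZT46. Cyp4f15, Cyp21a1 and Cyp11b2 had slopes of 0.16, 0.14 and 0.14 over 13 pools, and of 0.10, 0.11 and 0.11 without ZT46, where none of the 3 had an unadjusted p under 0.05. The other 4 genes with such a p without ZT46 were Cyp7b1, Cyp17a1, Cyp2e1 and Cyp2d26, with slopes of -0.16, -0.20, -0.28 and -0.27 there.

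The wave of the second day was compared with that of the first in the 6 pools of each day. Of the 49 genes 4 passed, 8.16%, against 478 of all genes, 2.93%: Cyp2c37, Cyp26c1, Cyp2d10 and Cyp21a1. Without ZT46 none of them did (adjusted p = 0.105 to 0.123), and of all genes 1 did, 0.00613%. At an unadjusted p under 0.05 there were 15 of 49, 30.6% against 26.6% of all genes, which is close to the background. Without ZT46 there were 17, 34.7% against 21.9%. Cyp2d10 had an amplitude of 0.43 log2 and a peak at 15.8 h on the second day, and 0.34 and 9.7 h on the first (adjusted p = 0.0485). Cyp2c37, an arachidonic acid epoxygenase, had 0.29 and 17.6 h on the second day, and 0.20 and 6.3 h on the first (0.0464). Cyp26c1 had 0.29 and 18.3 h, and 0.20 and 11.1 h (0.0485), and Cyp21a1 had 0.22 and 17.1 h, and 0.20 and 10.6 h (0.0499), in the same order of days. In Cyp2d10, Cyp26c1 and Cyp21a1 the fitted peak was thus later on the second day. The peaks of Cyp2c37 lay nearly opposite each other in the 24 h, so later and earlier cannot be told apart. The count of 4 became 0 under 5 of the alternatives, 0 or 1 when any single pool but ZT42 was left out, and 11 without ZT42. Cyp2f2 had like waves on both days, with peaks at 15.4 h on the second and 15.0 h on the first (adjusted p = 0.798).

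Genes that serve or control P450 enzymes were looked at in 3 lists. Of those that supply electrons and heme, 15 of 20 were measured and none had even an unadjusted p under 0.05 for the 24 h wave (limma). Cyb5r3, a reductase of cytochrome b5, ranged from 5616 to 7180, and Alas1, the first enzyme of heme synthesis, from 1511 to 1837 with a fold of 1.07. Of the receptors and factors, 24 of 26 were measured and 2 passed, Dbp and Tef, against 0.141% of all genes. At an unadjusted p under 0.05 there were 6 of the 24, against 9.54% of all genes. Dbp had a fold of 5.85 with a peak at 9.7 h (adjusted p = 0.00228) and Tef one of 2.24 with a peak at 10.9 h (7.70e-04). Hlf, the other D-box factor, had a fold of 1.78, a peak at 12.1 h and an adjusted p of 0.0750, and 0.0322 without ZT46. Their fitted peaks lay earlier in the day than the 15.1 h of Cyp2f2, a difference that was not tested. Receptors named for their known role were flatter: Ahr, the dioxin receptor, had a fold of 1.03, Nr1i3, which is CAR, 1.14, Ppara 1.14 and Vdr, the vitamin D receptor, 1.09. Of 19 related enzymes 16 were measured and none passed, with 4 at an unadjusted p under 0.05, against 9.54% of all genes. Sult1a1, a sulfotransferase of phenols, was nearest, with a fold of 1.39 and a peak at 14.1 h (adjusted p = 0.213), and Cyp51, the sterol demethylase, had a fold of 1.05.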

How the data were processed

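Whole back skin was measured on 13 1-colour Affymetrix whole-transcript arrays, 1 pool of 3 mice each, per the labels' protocols. The deposited table gives an intensity per probe, which its range shows to be linear and not logarithmic. The submitters' processing notes name Affymetrix Expression Console 1.1.1 and PLIER 2.0 with no role. How arrays were scaled against each other, and the genome build, are not given in the sources used here. The number of arrays limits the precision.

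Probes were named from the platform annotation: of 35557, 21789 had 1 symbol, 1621 several and 12147 none. RefSeq's mouse table (GRCm38.p6) served for names and gene order only and updated 0 symbols. Intensities were converted to log2(value + 16), so folds are on that scale and understate changes of dim genes. Tests ran in limma 3.58.1 (R 4.3.3) over 16322 genes, with a 24 h cosine and sine plus linear time, and Benjamini-Hochberg adjustment with calls at 0.05. Dark was set against light with linear time in the model, and the days by the interaction of day and wave without ZT50. All tests were checked on simulated data with noise drawn independently for each gene. Those data held no outlying pool such as ZT46 and no shift shared between genes, so the check does not cover these. Each pool holds other mice, and the spread behind a p-value is that between pools, not between single mice.

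The members, gene lists, roles and tests were chosen with earlier results of these data known. Named genes were those called in a test, the 10 with the highest mean, the 12 with the largest amplitude, those at least 1.5-fold up in ZT46, and the 3 smallest p per test and direction. Others are named to complete their role group, and pathway genes beyond the smallest p of their list for their known role. Genes below the level threshold, those named for their ZT46 value included, were named after their values were seen. Alternatives were other scalings, a pseudocount of 1 or of 64, a filter at the 50th percentile or none, the mean of a gene's probes, another variance prior, other time terms, marker lists as covariates and leaving out each pool. Motifs were counted in Python 3.11.15, promoters aligned with Biopython 1.88 and figures drawn with matplotlib 3.10.9.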

Additional observations from a re-analysis of the deposited data

Results flagged for a closer look

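Single pools far from the rest of their light phase were found in 7 of 52 sets of pools, each set being the dark or the light pools of a named P450 gene. Chance gives about 1 in 20 sets, but several of these genes were named for their ZT46 value or their amplitude, so the 7 cannot be read against that rate. The measure is the gap to the nearest pool divided by the whole range. ZT46 was the far pool among the dark ones for Cyp2c29 (0.898 of the range, at 6793), Cyp2d26 (0.897, at 884), Cyp2c70 (0.675, at 487) and Cyp3a25 (0.636, at 459), all higher than the other dark pools. Hepatocyte markers were highest in the same pool, and their part was not tested. Cyp4b1 was set apart by a high ZT14 pool in the dark (0.682, at 1230) and Cyp2s1 by a high ZT18 pool (0.732, at 2391). Cyp39a1 was set apart by a low ZT50 pool in the light (0.708, at 1001).

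The wave of the second day differed from that of the first in Cyp2c37 (limma, adjusted p = 0.0464), Cyp2d10 (0.0485), Cyp26c1 (0.0485) and Cyp21a1 (0.0499). None of the 4 passed without the ZT46 pool.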

How the results depend on the processing

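No 24 h wave that passed, in the main fit or in an alternative, had its peak moved to the other side of the day. The comparison of days and the fit with times of day as a factor give sizes without a sign. A reversal could thus not be seen in them. Some effects that did not pass changed sign. Without ZT46, for example, the slope went from 0.04 to -0.27 log2 per 24 h in Cyp2d26. It went from 0.008 to -0.28 in Cyp2e1 and from 0.32 to -0.13 in Cyp2c29. Dark minus light of Cyp2c29, 0.51 log2 over 13 pools, was -0.16 in its lowest alternative. Cyp2f2 passed in 26 of 27 alternatives, among them all 13 fits that leave out a pool (highest adjusted p = 0.0127). The sebaceous covariate was the exception (amplitude 0.38 against 0.40 log2, adjusted p = 0.103). The count of P450 genes with a 24 h wave, 1 over 13 pools, became 0 with the sebaceous covariate and 2 without ZT46, and lay between 1 and 2 when single pools were left out. Without ZT46 the count of 2 became 1 with times of day as a factor, with the sebaceous and with the adipocyte covariate, and lay between 1 and 2 when a second pool was left out. With Cyp4b1 it became 3 under an intensity trend with robust prior (adjusted p = 0.0486) and under the hepatocyte covariate (0.0348). The unadjusted count of 15 became 7 with times of day as a factor, 4 with the sebaceous covariate and 9 without ZT14. Dark against light and drift gave 0 under each alternative run. The count of 4 for the days became 0 under quantile normalization, median centring, no filter, the 50th percentile filter and the hepatocyte covariate, 1 with a pseudocount of 64, and 0 to 11 when single pools were left out, with 11 without ZT42. The 7 genes raised in ZT46 became 18 with no filter and 2 with the 50th percentile filter, since the first counts more dim genes and the second fewer. The covariates other than hepatocytes, the repeats without ZT46 and the ZT46 counts were chosen after seeing the data. For the other changes the cause was not tested. No paired analysis was possible because the labels give the pools no replicate numbers. The days share only their hours, and these were used in the fits with times of day or with the day as a factor. With 13 arrays and 1 pool per time, spread between single mice is not seen, and dim probes such as that of Cyp21a1 lie near the level threshold.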
